A study of Mus musculus with 28 samples.

Results

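The genes described here are 30 genes of cholesterol synthesis and sterol handling, measured by RNA-seq in mouse epidermis in which Kdm6a, also called Utx, was deleted. They were chosen by name, as a fixed list of symbols, from the 24946 genes of the deposited tables. The list was set with earlier results of these data known, so shares over all genes are given beside its counts as description only. All 30 were present and passed the filter on low values in every table. Kdm6a lies on the X chromosome and encodes a demethylase of histone H3K27, and the deletion was made with a Krt14-Cre transgene, which is active in keratin-14 expressing epithelia and leaves the gene intact in other cells of the skin. Values per library were held for 4 tables: young females (4 controls, 5 conditional knockouts, cKO), young males (3 and 3), aged females (2 and 2) and aged males (3 and 3). Control females carried Cre-; Utx fl/fl and cKO females Cre+; Utx fl/fl. Control males carried Cre-; Utx fl/Y, except control 3, which was Cre-; Utx +/Y, and cKO males carried Cre+; Utx fl/Y. No control carried Cre, so the presence of Cre and the loss of Kdm6a cannot be told apart. Heterozygous females (Cre+; Utx +/fl) are described only from the authors' deposited table. Young and aged are words from the titles of the tables, with no age given in the labels.

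Cholesterol is made from acetyl-CoA through mevalonate, farnesyl diphosphate and squalene, and squalene is then closed into lanosterol and trimmed to cholesterol. The enzymes are switched on together by SREBP2, a membrane-bound transcription factor that is carried to the Golgi by its escort SCAP when sterols are low and held back by the INSIG proteins when sterols are high. Surplus cholesterol is esterified by SOAT1, and oxidized sterols switch on the LXR receptors, which raise the exporters ABCA1 and ABCG1. In epidermis these genes serve the lipid barrier and the sebaceous gland, both of which use large amounts of newly made sterol. Of the 30 genes, 8 belong to the mevalonate arm, 12 to the squalene and sterol arm, 4 to SREBP control, 2 to sterol transfer and storage, and 4 to LXR and efflux. The first 2 groups are called the 20 synthesis genes below.

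Promoter sequences are shown for 4 of these genes on which the results turn: the early enzyme Hmgcs1 and the feedback gene Insig1, which are both known SREBP targets, and Soat1 and Abca1, the genes that passed the test in a table. Each run is 300 bases from RefSeq on GRCm38.p6, from 250 before to 50 after an annotated start, written 5′ to 3′ on the strand of the gene. Capitals mark TCACNCCAC, a core of the sterol response element, and CCAAT, the box bound by the SREBP partner NF-Y, on either strand.
Hmgcs1, chr13:119690101-119690400, plus strand: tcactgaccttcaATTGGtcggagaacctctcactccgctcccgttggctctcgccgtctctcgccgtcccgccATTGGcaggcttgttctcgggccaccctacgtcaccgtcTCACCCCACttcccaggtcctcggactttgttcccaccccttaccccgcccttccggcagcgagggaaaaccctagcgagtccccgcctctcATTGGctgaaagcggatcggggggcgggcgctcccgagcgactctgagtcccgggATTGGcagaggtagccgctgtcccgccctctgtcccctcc
Insig1, chr5:28071162-28071461, plus strand: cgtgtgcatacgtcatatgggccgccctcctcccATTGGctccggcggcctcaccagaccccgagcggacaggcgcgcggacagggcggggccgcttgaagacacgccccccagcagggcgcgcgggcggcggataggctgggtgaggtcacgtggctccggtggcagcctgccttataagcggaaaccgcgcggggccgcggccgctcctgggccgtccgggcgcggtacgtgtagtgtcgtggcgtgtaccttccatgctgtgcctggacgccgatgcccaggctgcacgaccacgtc
Soat1, chr1:156474279-156474578, minus strand: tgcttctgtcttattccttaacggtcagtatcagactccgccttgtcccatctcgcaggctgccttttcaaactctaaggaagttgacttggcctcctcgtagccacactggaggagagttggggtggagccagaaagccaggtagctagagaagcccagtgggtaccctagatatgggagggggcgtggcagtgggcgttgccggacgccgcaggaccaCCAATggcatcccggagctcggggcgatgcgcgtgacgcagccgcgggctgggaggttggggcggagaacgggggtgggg
Abca1, chr4:53159846-53160145, minus strand: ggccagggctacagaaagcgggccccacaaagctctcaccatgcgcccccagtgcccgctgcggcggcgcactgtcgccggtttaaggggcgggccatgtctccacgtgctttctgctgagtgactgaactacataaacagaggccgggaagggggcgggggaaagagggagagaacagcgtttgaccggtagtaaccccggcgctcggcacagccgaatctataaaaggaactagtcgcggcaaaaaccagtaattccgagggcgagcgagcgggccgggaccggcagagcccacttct
Promoters were found for 25 of the 30 genes, and the matches are descriptions of letters in these windows. TCACNCCAC was found in 1 of the 25 genes, Hmgcs1, where it begins at position -137 from the start, and in 1.44% of all 27025 genes with a promoter in the table. CCAAT was found in 20 of the 25 and in 41.1% of all genes. Hmgcs1 holds 4 CCAAT boxes, at -237, -176, -45 and 11, Insig1 holds 1 at -216, Soat1 holds 1 at -30, and Abca1 holds none. A further motif, CACGTG, was found in 6 of the 25, among them Insig1 and Abca1, and in 8.09% of all genes.

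The labels were checked first. Kdm6a was lower in every young cKO library than in every control of its table (873 to 1154 against 1265 to 1663 normalized read counts in females, 460 to 573 against 816 to 1187 in males). Aged female controls were at 3367 and 2852, above the libraries labelled cKO at 1373 and 1299. Those 2 cKO libraries also had Xist, the RNA of the inactive X chromosome, at 17.1 and 14.4, against 20923 and 18431 in the controls, with the Y-linked Ddx3y at 1.99 and 2.07. The aged female comparison thus differs between its groups in Xist as well as in Kdm6a, and the 2 cannot be told apart. Gh, the growth hormone gene, was at 331 to 820 in all 10 cKO libraries of young females, young males and aged females. It was at most at 2.58 in the controls of these 3 tables. In the authors' deposited table Gh was also high in heterozygous females, which carry Cre, at a mean of 607. High Gh is thus not particular to the homozygous or hemizygous cKO. Aged males went against the pattern of Gh: libraries labelled control 5 and control 6 had Gh at 2443 and 559. The library labelled cKO 5 had Gh at 0 and Kdm6a at 1322. That Kdm6a value lay within the range of the aged male controls, 1090 to 1511, with controls 5 and 6 among them. Aged male values are therefore given by label only. Markers of basal keratinocytes summed to 325719 to 640127 in every library. Sums of normalized values were 19.3 M to 31.1 M per library. Nothing in the labels says that the libraries of a group came from separate animals, so p-values measure the spread between these libraries.

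In aged females most synthesis genes were lower in cKO. Of the 20 synthesis genes, 19 had a lower mean log2 value in the libraries labelled cKO, with a median log2 change of -0.36, against a median of 0.0035 over all 14652 genes tested. Ebp, the sterol isomerase, was the exception at 0.08. With limma's test adjusted over all genes, 1 of the 30 genes passed, Soat1, where 0.669% of all genes passed. Library number series are here the leading digits of the library names, except in 1 aged male pair. With a block for library number series, 6 of the 30 fell (Idi1, Insig1, Lss, Msmo1, Soat1 and Stard4), where 2.94% of all genes passed. The adjusted p-values below are without that block. At an unadjusted p under 0.05 there were 17 of the 30 genes, where 14.3% of all genes lay. Of the 17, 16 were lower. Over all genes, 2099 lay under that p, and 1281 of these were lower (8.74% of all genes). In 23 of the 30 genes the 2 groups did not overlap, as in 44.3% of all genes. In 21 of those 23 the cKO libraries were the lower ones. Over all genes, the groups of 6485 did not overlap, and cKO was lower in 3229 of these (22% of all genes). Each group held 2 libraries.

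**Figure D1:**
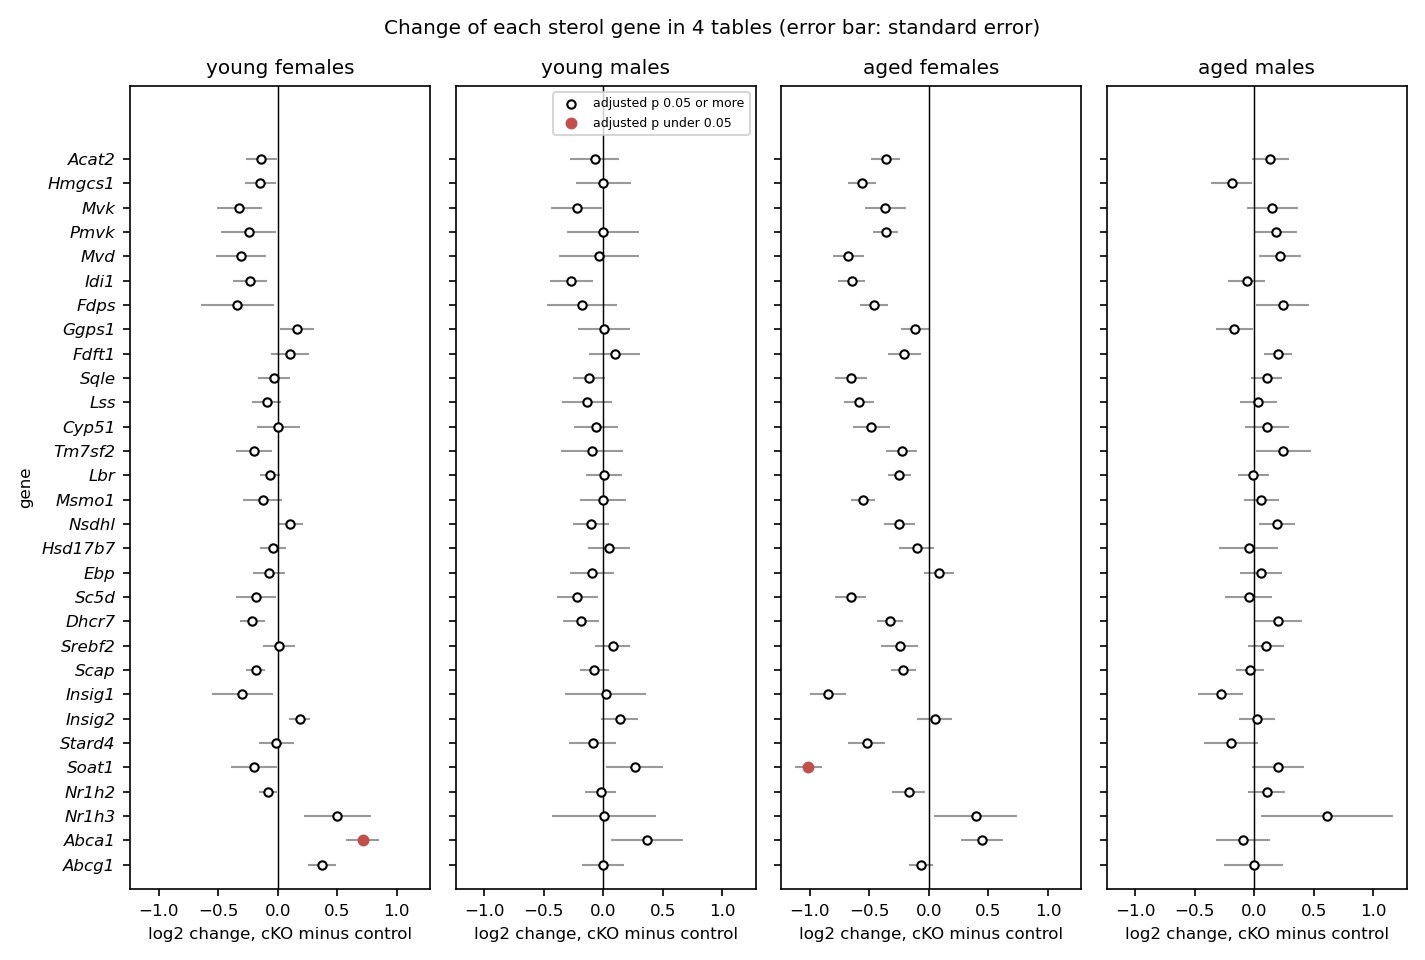
Log2 change of each of the 30 genes, cKO minus control on the log2(value + 1) scale, in 4 panels for the 4 tables; bars are standard errors from limma and filled points passed the adjusted threshold of 0.05. In aged females 19 of 20 synthesis genes lie left of 0, and Soat1 (-1.01) is filled; in young females Abca1 (0.71) is filled.

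In the mevalonate arm of aged females, all 8 genes had log2 changes below 0, from -0.68 to -0.12, and none passed the adjusted test without the block. Hmgcs1, which makes the HMG-CoA from which mevalonate is formed, lies on chromosome 13 from 119690379 to 119708260 (GRCm38). It was at 30955 and 33950 in the controls and at 22914 and 21082 in cKO, or -0.56 on the log2 scale (SE 0.12, adjusted p = 0.108). Idi1, the isomerase of isopentenyl diphosphate, was at 6811 and 7780 in the controls and at 4920 and 4404 in cKO, or -0.65 on the log2 scale (SE 0.11, adjusted p = 0.0759). For both genes the cKO libraries lay below both controls. The log2 changes of the others were -0.68 for the diphosphate decarboxylase Mvd, -0.46 for the farnesyl diphosphate synthase Fdps, and -0.36 each for Mvk, Pmvk and Acat2. The smallest was -0.12 for Ggps1, which draws farnesyl diphosphate off to protein prenylation, and its groups overlapped.

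In the squalene and sterol arm, 11 of 12 genes had log2 changes below 0 and none passed the adjusted test without the block. Sqle, the squalene epoxidase, was at 6819 and 8299 in the controls and at 5144 and 4432 in cKO, or -0.66 on the log2 scale (SE 0.13, adjusted p = 0.0968). The lanosterol synthase Lss followed at -0.59, the methyl oxidase Msmo1 at -0.55 and the lanosterol demethylase Cyp51 at -0.48, and the late desaturase Sc5d was at -0.66. Dhcr7, the last reductase, was at 5522 and 6481 in the controls and at 4773 and 4753 in cKO, or -0.33 on the log2 scale (SE 0.11, adjusted p = 0.255). Smaller changes were those of Lbr and Nsdhl (-0.25 each), Tm7sf2 (-0.23), Fdft1 (-0.20) and Hsd17b7 (-0.10), and the groups overlapped in Fdft1 and Hsd17b7. Nsdhl and Ebp are the X-linked genes among the 30.

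Among the regulators, Insig1, the feedback inhibitor of SREBP transport and itself an SREBP target, was at 4095 and 3961 in aged female controls and at 2596 and 1933 in cKO. Its log2 change was -0.85 (SE 0.15, adjusted p = 0.0783), with both cKO libraries below both controls. Its paralogue Insig2, which is not known as an SREBP target, was at 0.05, with overlapping groups. Srebf2, the gene of SREBP2, was at -0.24 and its escort Scap at -0.22. Stard4, which carries cholesterol through the cytosol, was at 5842 and 6942 in the controls and at 3894 and 5052 in cKO, or -0.52 on the log2 scale (SE 0.16, adjusted p = 0.208).

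Soat1, the enzyme that esterifies cholesterol for storage, fell in aged females. It lies on chromosome 1 from 156424525 to 156474331. Its control values were 1757 and 2015, and those of the libraries labelled cKO were 960 and 908 (means 1886 ± 182 and 934 ± 36.6, SD, n = 2 each). The log2 change was -1.01 (SE 0.11, limma adjusted p = 0.0354), and every cKO library lay below every control. The call was lost when any 1 of the 4 libraries was left out (adjusted p 0.0710 to 0.137), which leaves 1 library in a group, assumed to vary like the other group, and without the filter on low values (adjusted p = 0.134), while the log2 change stayed between -1.11 and -0.91. In the other tables Soat1 did not pass: its log2 changes were -0.20 in young females, 0.26 in young males and 0.20 in aged males.

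On the efflux side of aged females, Abca1 was at 2288 and 1681 in the controls and at 2425 and 2951 in cKO, or 0.45 on the log2 scale (SE 0.17, adjusted p = 0.320). Its cKO libraries lay above both controls, the opposite side from the synthesis genes. Within the number series its log2 change was 0.81 (U013x) and 0.08 (U60x). The LXR genes Nr1h3 and Nr1h2 were at 0.40 and -0.17, and Abcg1 was at -0.06, none of which passed. Nr1h3 was low, with means of 31.4 in the controls and 41.1 in cKO in the authors' deposited table. Its log2 change within the number series was 0.74 (U013x) and 0.05 (U60x).

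Each aged female pair of libraries from 1 number series showed the same direction. The pair of series U013x (control 6, cKO 7) had all 20 synthesis genes lower in cKO, with a median log2 change of -0.57, and the pair of series U60x (control 5, cKO 6) had 17 of 20 lower, with a median of -0.24. Over the 30 genes, 22 were lower in cKO in both pairs and 3 were higher in both. Where the groups do not overlap, as in 23 of the 30 genes and 44.3% of all genes, both pairs must share a direction. These counts therefore add little to the non-overlap given above, and their share over all genes was not computed. Soat1 was at -1.15 and -0.87 in these pairs, and Insig1 at -1.03 and -0.66. What the number series stand for is not stated in the labels.

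The authors' deposited table for aged females lists 22 of the 30 genes, and Soat1, Sqle, Sc5d and Stard4 are among those not listed in the part held here. Of those 22, 7 fell in the authors' deposited table, namely 6 enzymes and Insig1, where 4.50% of all genes with an adjusted p were called. The values in the authors' deposited table were those of Insig1 (log2 -0.83, adjusted p = 0.000141), Idi1 (-0.65, 0.000246), Hmgcs1 (-0.56, 0.000331), Msmo1 (-0.56, 0.000528), Mvd (-0.67, 0.00322), Lss (-0.59, 0.00496) and Fdps (-0.46, 0.0216). The directions were those found here, on the same libraries.

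Sums of markers of other cells also differed between the aged female groups. The 6 adipocyte markers summed to 750 to 1107 in the controls and 269 to 347 in cKO, 5 of 5 tested were lower, and Adipoq fell (log2 -3.03, limma adjusted p = 0.0273). The 8 sebaceous gland markers summed to 41062 to 47782 and to 42079 to 53604, with 7 of 8 lower in cKO and a median of -0.50, and none passed. The 6 skeletal muscle markers summed to 798 to 3718 and to 172 to 2209. Other lists were higher in cKO: the 3 melanocyte markers summed to 725 to 864 in the controls and 1023 to 1264 in cKO, and the 6 fibroblast markers to 1034 to 1125 and 1239 to 1315. The 6 Langerhans and myeloid markers were all higher, with overlapping sums (21568 to 25075 and 21914 to 29295). The 4 erythrocyte markers summed to 831 to 1130 and to 320 to 669, and the 3 endothelial ones to 133 to 196 and to 94.1 to 124. None of the markers in these last 5 lists passed. Hbb-bs was at 0 in every library and no other marker of these lists was, and the part of these cells in the sterol values was not tested. In bulk RNA, fewer cells of a type and less RNA per cell cannot be told apart. Fatty acid synthesis genes, which the related SREBP1 drives, were lower beside the sterol genes: 9 of 9 had log2 changes below 0, with a median of -0.41, and none passed the adjusted test. The fatty acid synthase Fasn was at -0.73 (adjusted p = 0.0783) and Elovl6 at -0.51 (adjusted p = 0.0931). The 6 genes of SREBP processing and turnover had a median of -0.04 and the 12 of sterol uptake and transport a median of 0.03. None passed in either list. The 5 LXR-regulated and lipoprotein genes summed to 93576 to 96913 in the controls and 119275 to 124987 in cKO. Of these 5, 1 was above 0 and 4 were below, with a median of -0.02, and none passed. Sult2b1, which makes cholesterol sulfate in the upper epidermis, was at -0.57 (adjusted p = 0.114).

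**Figure D2:**
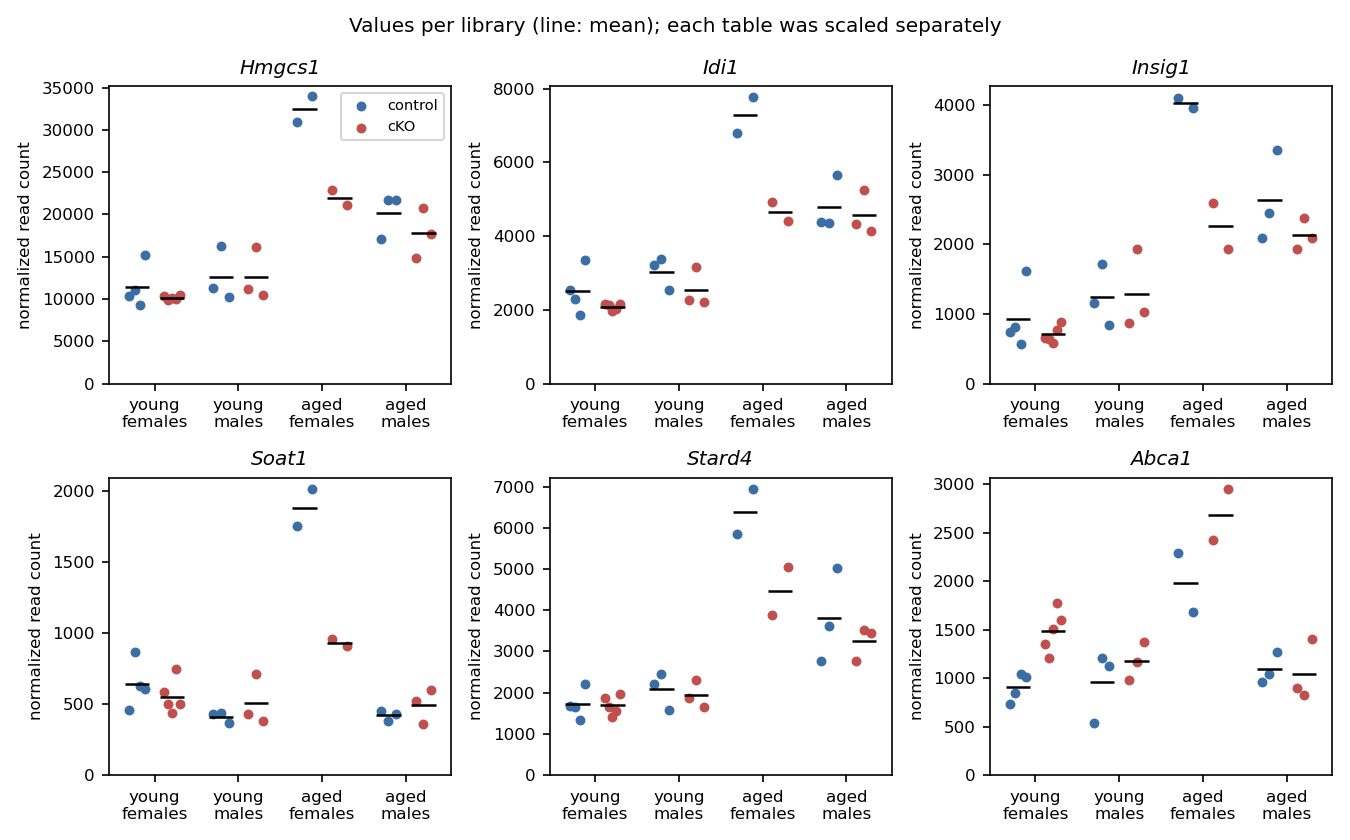
Normalized read counts of Hmgcs1, Idi1, Insig1, Soat1, Stard4 and Abca1 in every library (points; blue control, red cKO) with group means (lines), by table. In aged females the red points of the first 5 genes lie below the blue ones (Soat1 at 960 and 908 against 1757 and 2015); levels are not comparable between tables, which were scaled separately.

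In young females Abca1 was the gene that rose, and the other 3 genes of LXR and efflux did not pass. Abca1, which exports cholesterol and is a classic LXR target, lies on chromosome 4 from 53030787 to 53159895. Its values in controls 1 to 4 were 728, 848, 1047 and 1012, and in cKO 1 to 5 they were 1353, 1206, 1505, 1775 and 1604. All 5 cKO libraries lay above all 4 controls. The means were 909 ± 148 (SD, n = 4) and 1489 ± 220 (SD, n = 5), or 0.71 on the log2 scale (SE 0.14, limma adjusted p = 0.0201). Within the 3 library number series the log2 change was 0.70 (U011x), 0.64 (U025x) and 0.66 (U046x). The call was lost without control 1 (log2 0.61, adjusted p = 0.0578), without control 2 (0.68, 0.0647), without cKO 5 (0.68, 0.0505) and without both U046x libraries (0.74, 0.0736). In the authors' deposited table Abca1 rose by a log2 of 0.71 with an adjusted p of 0.000279.

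Abca1 was the only one of the 30 genes to pass in young females, where 3.94% of all genes passed. With the block for library number series 2 of the 30 passed, Abca1 and Abcg1, where 14.5% of all genes passed. At an unadjusted p under 0.05 there were 3 (Abca1, Abcg1 and Scap), where 16.6% of all genes lay, and Abca1 alone had groups that did not overlap, as did 8.63% of all genes. Its partner Abcg1, which passes cholesterol to HDL, was at 685 to 965 in the controls, with a median of 807, and at 895 to 1204 in cKO, with a median of 1058. The log2 change was 0.37 (SE 0.12, adjusted p = 0.132), and the groups overlapped. Of the LXR genes, Nr1h3 was low, at 17.3 to 44.9 in all young female libraries, with or 0.50 on the log2 scale (SE 0.28, adjusted p = 0.420), and Nr1h2 was at -0.08.

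Log2 changes of the synthesis genes in young females were small: 16 of 20 were below 0, the median was -0.13 against -0.0074 over all genes, and none passed. That median was -0.07 without control 4, and -0.06 under quantile normalization and without both U046x libraries. Hmgcs1 was at 10310, 11034, 9238 and 15196 in controls 1 to 4 and at 10295, 9838, 10167, 10053 and 10496 in cKO 1 to 5, or -0.14 on the log2 scale (SE 0.13, adjusted p = 0.635). Its controls spanned the whole cKO range, and control 4 stood above all others. Idi1 was at 2543, 2303, 1863 and 3348 in controls 1 to 4 and at 2165, 2133, 1963, 2032 and 2152 in cKO 1 to 5, or -0.24 on the log2 scale (adjusted p = 0.455). Sqle was at 3374, 3784, 2695 and 3708 in the controls and at 4015, 3397, 2926, 2790 and 3444 in cKO, or -0.03 (adjusted p = 0.926). For both genes the controls spanned most of the cKO range. Dhcr7 was at 4138, 4677, 4277 and 3833 in the controls and at 4323, 3716, 3772, 3312 and 3192 in cKO, or -0.21 (adjusted p = 0.345). Soat1 was at 461, 865, 631 and 603.3 in the controls and at 586, 498, 435, 744 and 503 in cKO (adjusted p = 0.653). The groups of both genes overlapped. Of the regulators, Srebf2 was at 0.01, Scap at -0.19, Insig1 at -0.30 and Insig2 at 0.18, and Stard4 was at -0.01. Over the 20 synthesis genes the log2 changes lay between -0.34 (Fdps) and 0.16 (Ggps1).

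Among the other sterol genes in young females, Scarb1, the receptor that takes up cholesterol from HDL, rose from 69.4 ± 12.2 (SD, n = 4) to 127.8 ± 26.1 (SD, n = 5), or 0.87 on the log2 scale (adjusted p = 0.0375). Nceh1, a hydrolase of cholesteryl esters, rose from 243 ± 19.2 to 377 ± 75.4, or 0.61 on the log2 scale (adjusted p = 0.0448). Scarb1 was 1 of 12 genes of uptake and transport. Nceh1 was 1 of 3 tested genes of a list named for oxysterols, and the oxysterol genes of that list did not pass. No gene of the other lists of the pathway passed. The 5 LXR-regulated and lipoprotein genes summed to 66450 to 75849 in the controls and 88946 to 114557 in cKO. Of these 5, 4 were above 0, with a median of 0.12. Fatty acid synthesis genes were split, with 6 of 9 above 0 and a median of 0.12. Markers of other cells moved in the same comparison. The 6 Langerhans and myeloid markers summed to 12064 to 16340 in the controls and 16690 to 26766 in cKO, with 6 of 6 higher and Csf1r past the test. The 8 sebaceous markers summed to 21957 to 28994 and to 30322 to 43835, with 6 of 8 higher and none past the test, and Krt79 makes up most of that sum. Of the suprabasal keratinocyte markers, Krt1 rose (log2 1.25, adjusted p = 0.00322) and Ivl rose (log2 1.33, adjusted p = 0.00834). Of the erythrocyte markers, Hba-a1 fell (log2 -1.38, adjusted p = 0.0466). Hbb-bs was at 0 in every library and no other marker of these 4 lists was, and their part in the Abca1 difference was not tested.

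Within young females, many of the 30 genes followed the library number series. In a limma fit with genotype and series, 16 of the 30 genes and 12 of the 20 synthesis genes differed between the 3 series, where 35% of all genes did. The split into series was made after the values were seen. Of the 16, 10 were highest in series U011x, all of them enzymes: Acat2, Mvk, Pmvk, Mvd, Fdps, Fdft1, Sqle, Cyp51, Msmo1 and Ebp. Fdps was at 10428 and 9862 in controls 1 and 2 and at 8799 and 9315 in cKO 1 and 2, all of series U011x. In the 5 libraries of the other series it was at 3914 to 6418. Series U011x thus lay above both other series, which overlapped each other, and the genotypes overlapped within the table.

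Abca1 was highest in series U025x, and a further 5 genes were highest in series U046x: Ggps1, Sc5d, Srebf2, Insig1 and Stard4. Insig1 was at 1612 in control 4 and 881 in cKO 5, both of that series, and at 568 to 805 in the other libraries. Young males share the series U011x and U046x with young females. There Insig1 was at 1718 (control 2) and 1937 (cKO 2) in series U046x and at 842 to 1151 elsewhere. Hmgcs1 was at 16265 and 16153 in those 2 male libraries and at 10202 to 11255 elsewhere. Fdps in young males was at 11661 (control 1) and 8063 (cKO 1) in series U011x and at 5194 to 6509 elsewhere. Fdps was thus highest in series U011x and Insig1 in series U046x in both sexes, with control and cKO libraries alike above those of the other series.

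**Figure D3:**
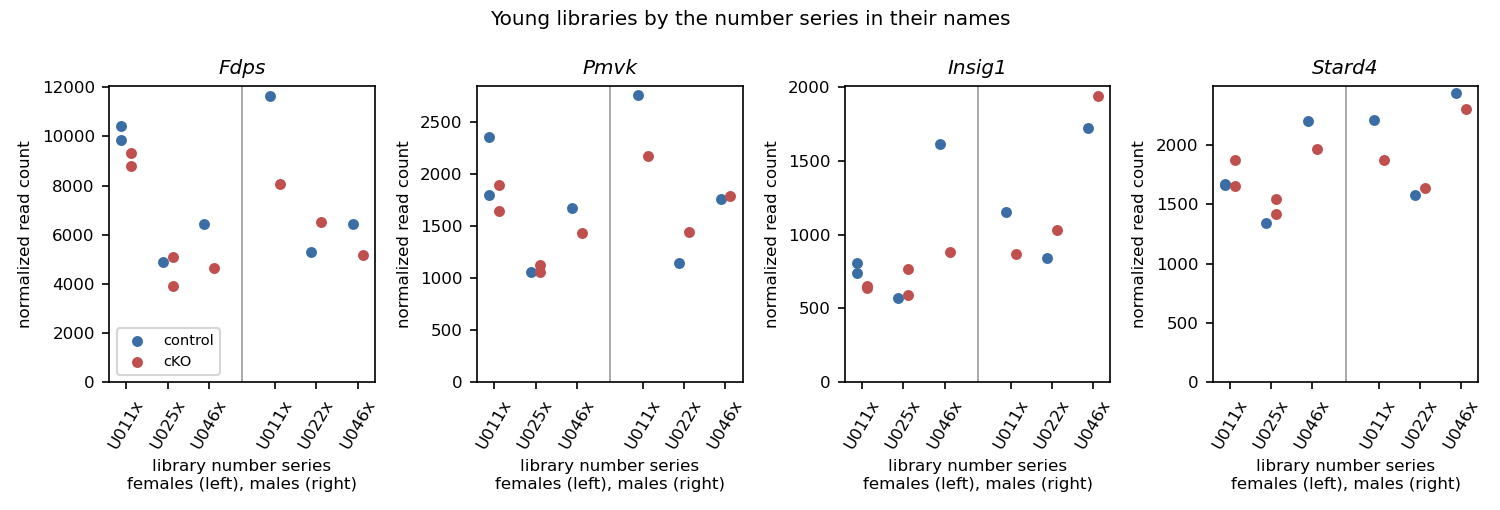
Normalized read counts of Fdps, Pmvk, Insig1 and Stard4 in young females (left of each panel) and young males (right), by the number series in the library names; blue points are controls and red points cKO. Fdps is highest in series U011x (8799 to 10428 in females), while Insig1 is highest in series U046x.

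In young males none of the 30 genes passed, where 0.0146% of all genes passed, and none was under an unadjusted p of 0.05, where 2.33% of all genes lay. Kdm6a itself did not pass there (log2 -0.93, SE 0.18, limma adjusted p = 0.902), though its groups did not overlap. The absence of calls in this table therefore does not show an absence of change. No gene of the 30 had groups that did not overlap, as 5.88% of all genes had. The 20 synthesis genes had a median log2 change of -0.08, with 14 below 0, and single libraries decided its sign: it was 0.06 without control 1 and -0.23 without control 3. Within series the median was -0.34 (U011x), 0.15 (U022x) and -0.03 (U046x), so the direction differed between the pairs. Hmgcs1 was at 11255, 16265 and 10202 in controls 1 to 3 and at 11133, 16153 and 10417 in cKO 1 to 3, a log2 change of 0.00 (SE 0.23). Abca1 was at 537, 1205 and 1130 in the controls and at 981, 1166 and 1375 in cKO, a log2 change of 0.37 (SE 0.30), with overlapping groups. Its low value was in control 1. Soat1 was at 427, 435 and 369 in the controls and at 433, 716 and 381 in cKO. All of these groups overlapped. Idi1 was at 3205, 3372 and 2540 in the controls and at 2269, 3151 and 2205 in cKO, or -0.27 on the log2 scale. Sqle was at 4347, 3904 and 3261 and at 3492, 3527 and 3500, or -0.12. Dhcr7 was at 6070, 4466 and 5527 and at 4659, 4290 and 5067, or -0.19. For each of the 3 the groups overlapped, and over the 30 genes the changes lay between -0.27 (Idi1) and 0.37 (Abca1). Markers of other cells differed here too. All 6 skeletal muscle markers were lower in cKO, with a median of -2.57, and 7 of 8 sebaceous markers were higher, with a median of 0.29. None of these passed, and their part in the sterol values was not tested.

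In aged males, by label, none of the 30 genes passed and none was under an unadjusted p of 0.05, where 0.014% and 0.83% of all genes lay. Kdm6a did not pass by label either (log2 -0.65, SE 0.31, limma adjusted p = 0.999). Fdft1, the squalene synthase, was the 1 gene whose groups did not overlap (4961 to 5437 in controls, 5475 to 6636 in cKO), as did 4.57% of all genes. The 20 synthesis genes had a median log2 change of 0.10, with 6 below 0. Without the 3 libraries that go against their labels in Gh, 1 control and 2 cKO libraries remained, and the median was -0.02. Hmgcs1 was at 17125, 21686 and 21697 in controls 4 to 6 and at 14817, 20783 and 17638 in cKO 4 to 6. Soat1 was at 450, 380 and 433 in the controls and at 522, 358 and 599 in cKO, and Abca1 at 961, 1041 and 1267 and at 898, 826 and 1404. All of these groups overlapped. Idi1 was at 4373, 4348 and 5664 in the controls and at 4319, 5259 and 4146 in cKO, or -0.06 on the log2 scale. Sqle was at 5948, 6212 and 7500 and at 6764, 7571 and 6707, or 0.10. Dhcr7 was at 8119, 8128 and 7731 and at 11273, 10369 and 6594, or 0.20. These groups overlapped too, and over the 30 genes the changes lay between -0.28 (Insig1) and 0.61 (Nr1h3, at 8.66 to 42.6 in all 6 libraries). By label, 8 of 8 sebaceous markers and 5 of 5 tested adipocyte markers were higher in cKO (medians 0.35 and 1.07). The 5 tested skeletal muscle markers were lower, with a median of -1.73. None of these markers passed, and their part in the sterol values was not tested.

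**Figure D4:**
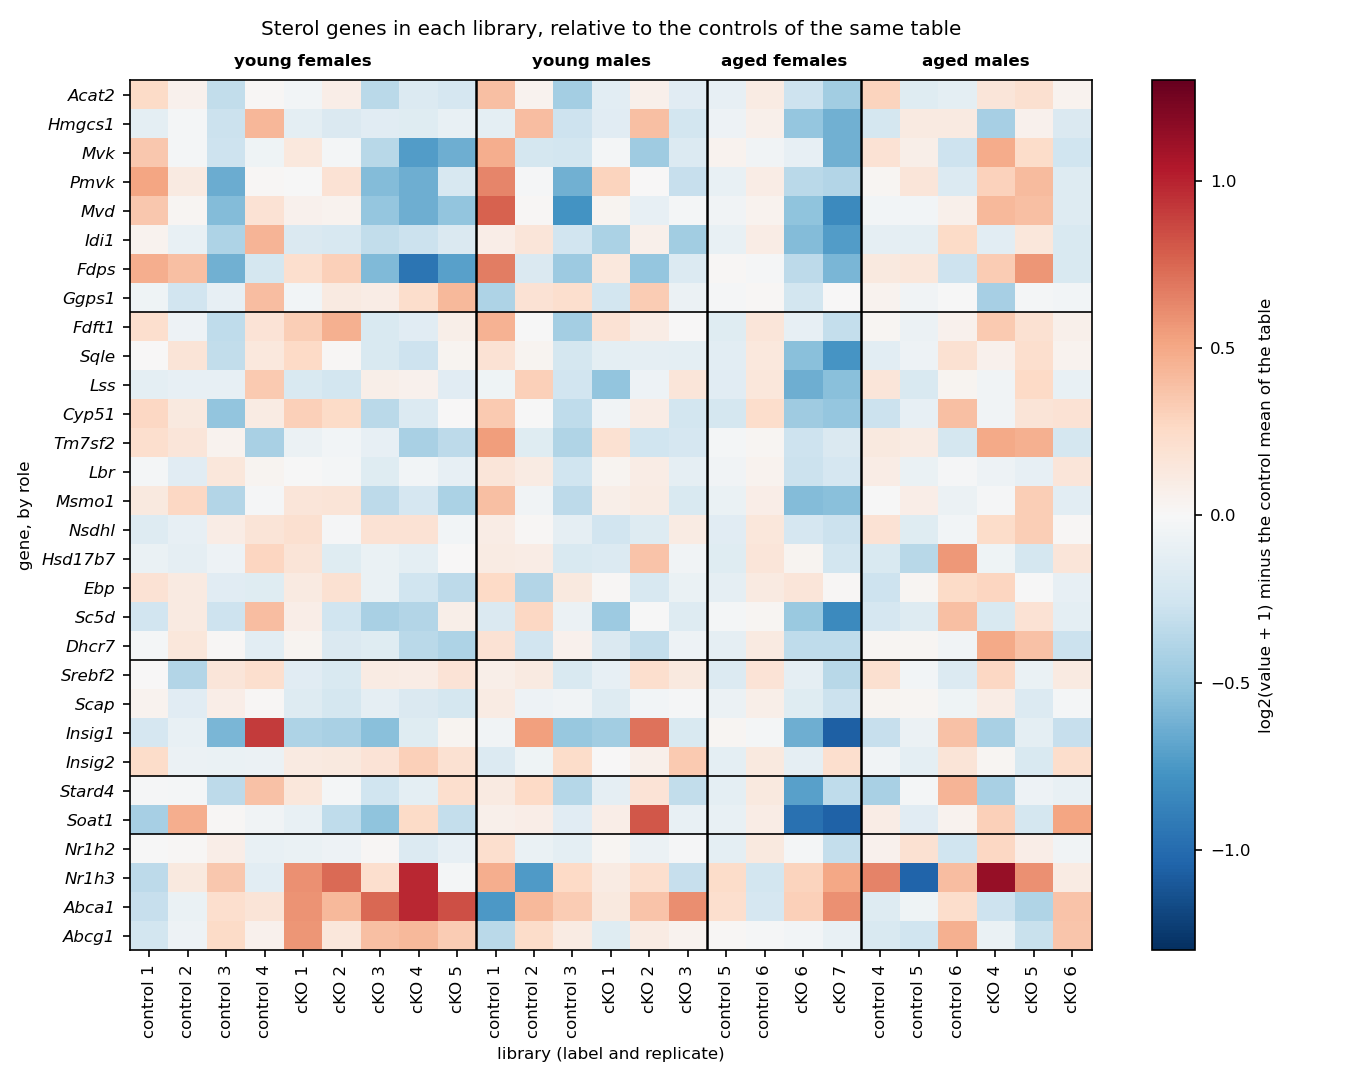
Each of the 30 genes (rows, ordered by role) in each of 25 libraries (columns, by table and label), coloured by log2(value + 1) minus the mean of the controls of the same table, from blue (lower) to red (higher). The libraries labelled cKO 6 and cKO 7 of aged females are blue in most synthesis rows, and the Abca1 row is red in all 5 young female cKO libraries.

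The difference of the change between tables, each change taken within its own table, was tested directly for each gene. No gene of the 30 passed for any of the 4 pairs of tables: young females against young males (0% of all genes passed), young females against aged females (0.0145%), young males against aged males (0%) and aged females against aged males (0.0355%). At an unadjusted p under 0.05 there were 8 of the 30 genes for aged females against aged males, where 3.47% of all genes lay. These 8 were Acat2, Mvd, Idi1, Fdps, Sqle, Lss, Msmo1 and Soat1, all with the lower change in aged females. Soat1 had the largest difference, -1.21 (SE 0.29), and the aged male labels bear on all 8. Xist also differed between the aged female groups, which bears on these 8 and on the comparison of young with aged females. Age and the Xist difference cannot be told apart in the latter. At that p there were 4 for young against aged females (Sqle, Lss, Soat1 and Abcg1), where 1.51% of all genes lay. Sqle was at -0.03 in young and -0.66 in aged females. There were none for young females against young males or for young against aged males, where 3.3% and 0.887% of all genes lay. The Abca1 change in young females exceeded that in young males by 0.35 (SE 0.33), which did not pass.

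Heterozygous young females are known only from the authors' deposited table, which lists 22 of the 30 genes and calls none of them. In the authors' deposited table their log2 changes ran from -0.19 (Mvk) to 0.34 (Nr1h3), with Abca1 at 0.29, Abcg1 at 0.18 and Insig1 at -0.03. Gh rose in that comparison from a mean of 1.58 to 607 (log2 8.58, authors' adjusted p = 1.8e-17). Kdm6a was at -0.27 and was not called. The control mean of the authors' deposited table followed controls 3 and 4 alone: over 3594 genes, its log2 ratio to their mean had an SD of 0.0157, against 0.125 or more for each of the 14 other subsets of the 4 controls. Those controls also stand in the comparison with the homozygous cKO, and control 4 is the library with the highest Insig1 and Hmgcs1.

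The deposited values do not say how reads of overlapping genes were assigned. In the GENCODE annotation, exons of Fdps share 26.7% of their length with Gm43738 on the same strand, those of Tm7sf2 share 12.1% with Vps51 on the same strand, and those of Fdft1 share 18.3% with Ctsb on the opposite strand. Hmgcs1 shares 12.1% with the antisense Gm48342. The library kit keeps the strand, but whether counting used it is not stated, so the values of these 4 genes may hold reads of their neighbours.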

How the data were processed

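The authors deposited 4 tables of normalized read counts, a signal scaled separately in each table, and 5 comparison tables with, per the file headers, a log2 change and p-values per gene, raw and adjusted. Tools named in the submitters' processing notes are STAR and DESeq2, and the builds there are mm10 and GRCm38, with no roles given. The comparison tables are held in part. Of 24972 names, 26 had become dates and were left out. Tests were made within a table with limma 3.58.1 (R 4.3.3), with a trend, on log2(value + 1), for genes of at least 10 in a number of libraries equal to the smaller group. The Benjamini-Hochberg method adjusted over all tested genes, at 0.05. Fold changes on this scale understate those of low genes. Differences between tables came from 1 limma fit per pair with separate group means. The script was tested on simulated data. All 30 genes are accounted for, with values per library for those called in a table and for Hmgcs1, Sqle, Dhcr7, Idi1, Soat1 and Abca1. Members and lists were chosen with earlier results of these data known. Alternatives were a pseudocount of 10, no filter, quantile normalization, a block for library number series, and leaving out each library. Some genes of the pathway are not analysed here. Read depth per library was not given in the sources used here, so no counting interval is printed. GENCODE and RefSeq gave coordinates and promoters.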

Additional observations from a re-analysis of the deposited data

Results flagged for a closer look

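Groups of 4 or 5 libraries occur only in young females, where 60 groups were looked at, and 3 held a library far from the others. Chance alone marks about 1 in 20 such groups. Lss, the lanosterol synthase, was at 1261 in control 4 and at 913 to 922 in the other 3 controls. Hsd17b7, a reductase of the sterol arm, was at 1086 in control 4 and at 829 to 856 in the others. Control 4 belongs to number series U046x and was also the highest control for Hmgcs1, Idi1, Insig1 and Stard4. Insig2 was at 2462 in control 1 and at 1972 to 1980 in the other 3 controls, with 2261 to 2580 in cKO.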

How the results depend on the processing

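In young females 1 gene of the 30, Abca1, passed under a pseudocount of 10, without the filter and under quantile normalization. A block for library number series gave 2 (Abca1 and Abcg1), where 14.5% of all genes passed, and leaving out both libraries of series U046x, chosen after seeing the data, gave 0. Leaving out 1 library gave 0 to 1. In aged females 1 gene, Soat1, passed under a pseudocount of 10 and quantile normalization, 0 without the filter, where 19433 genes were tested in place of 14652, and 6 with the block (Idi1, Insig1, Lss, Msmo1, Soat1 and Stard4), where 2.94% of all genes passed. Leaving out 1 library, which leaves 1 in a group, gave 0 in each case. The cause of the other differences was not tested. Both male tables gave 0 under each alternative run. Aged males without the 3 libraries that go against their labels in Gh kept 1 control and 2 cKO libraries, which says nothing of stability. The number series come from library names, and no label says that they pair libraries. In aged males the libraries named U28 and U30 share no leading digit and were set as 1 series. The median of the 20 synthesis genes in aged females ran from -0.48 to -0.26 over the alternatives, that in young females from -0.19 to -0.06, that in young males from -0.23 to 0.06 and that in aged males from -0.02 to 0.15, and quantile normalization, which moved the median of all genes by less than 0.1, gave -0.30 in aged females. Under alternatives, the adjusted p ran from 0.000468 to 0.0736 for Abca1 in young females and from 0.0268 to 0.137 for Soat1 in aged females.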
